A study of Mus musculus with 6 samples.

Results

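The mitochondrial solute carriers described here are the genes named Slc25a followed by a number, which encode the SLC25 family of inner-membrane transport proteins. All gene rows with such a symbol were taken from the deposited table of edgeR-normalised values, which gave 47 genes of 23404. Of these, 40 had a value of at least 1 in 3 or more of the 6 libraries and were tested. The other 7 (Slc25a2, Slc25a18, Slc25a21, Slc25a41, Slc25a43, Slc25a48 and Slc25a54) did not reach that level, and Slc25a21, Slc25a41, Slc25a48 and Slc25a54 were listed at 0 in all 6 libraries. The cells were cardiomyocyte preparations from C57BL/6J mice, sorted by green autofluorescence (the FITC channel) and forward scatter (FSC, which follows particle size). One gate, FITChigh/FSCdim, is called FITChigh here, and the other, FITCdim/FSChigh, is called FITCdim. Each gate had 3 libraries that the submitters call biological replicates. No treatment, transgene or age is given in the labels, and whether a replicate was 1 animal or a pool is not stated, so a p-value here speaks only of variation among these libraries.

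SLC25 carriers move metabolites across the inner mitochondrial membrane, which is otherwise closed to most charged molecules. They exchange ADP for ATP, bring in phosphate, pass carboxylates, amino acids, acylcarnitines and nucleotide cofactors, and feed metals and glutathione to the matrix. The heart makes most of its ATP in mitochondria, and the ADP/ATP carrier is known as one of the most abundant proteins of their inner membrane. Some members, the aspartate/glutamate carriers and the ATP-Mg/phosphate carriers, carry calcium-binding domains on the outer side of that membrane and respond to calcium.

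The ADP/ATP carrier paralogs Slc25a4 and Slc25a5 are shown first because the comparison of these isoforms rests on telling their reads apart. On mouse build mm10, Slc25a4 lies at chr8:46206797-46211284 on the reverse strand and Slc25a5 at chrX:36795651-36798807 on the forward strand. Their coding sequences are 894 bases each and were 77.4% identical. The stretch of 75 bases (1 read length) in which they are most alike covers coding positions 52 to 126, inside coding exons, and is given below with the 8 differing bases in capitals.

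Slc25a4: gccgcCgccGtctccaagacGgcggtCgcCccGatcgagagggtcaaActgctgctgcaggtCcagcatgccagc

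Slc25a5: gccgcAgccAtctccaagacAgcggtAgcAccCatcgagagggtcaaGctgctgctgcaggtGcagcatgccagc

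The calcium-regulated ATP-Mg/phosphate carriers Slc25a23 (chr17:57043711-57059863, reverse strand) and Slc25a24 (chr3:109123149-109168457, forward strand) are shown because the gates differed in opposite directions for them. Their coding sequences were 64.7% identical. Even their most alike 75 bases, coding positions 1139 to 1213 of Slc25a23 and 1163 to 1237 of Slc25a24, differ at 16 positions, again in capitals.

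Slc25a23: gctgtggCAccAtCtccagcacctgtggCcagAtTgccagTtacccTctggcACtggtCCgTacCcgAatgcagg

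Slc25a24: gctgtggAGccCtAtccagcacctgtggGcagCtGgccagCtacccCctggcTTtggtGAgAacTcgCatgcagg

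No 75-base window of the longest coding transcript of Slc25a4, Slc25a12, Slc25a23, Slc25a24, Slc25a30 or Slc25a45 recurred in a transcript of another gene. For Slc25a5, 325 of 1166 windows (27.9%) also occurred in annotated copies such as Slc25a5-ps. Its value may have lost reads to them or gained reads from them, by an amount that is not known. The shares for Slc25a36, Slc25a40 and Slc25a37 were 9.76%, 8.38% and 7.51%.

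The FITChigh libraries held 1589825 to 2931045 recovered reads, and the FITCdim libraries 1705626 to 3345994. Levels below are adjusted read counts, meaning reads set by the authors to a common library size and not divided by gene length. Their column totals still differed by gate, at 2333473 to 2443707 in FITChigh and 2030583 to 2112872 in FITCdim. All 20 cardiomyocyte markers passed the filter, and 3 were called higher in FITChigh (Tnni3, Ckmt2 and Cox6a2). The median log2 difference of the 20 was 0.46. Their summed level ranged from 502252 to 546673 in FITChigh and from 333529 to 389838 in FITCdim. For endothelial markers, all 18 were lower in FITChigh, with sums of 846.3 to 1189 against 6051 to 6890. Lower calls also covered 13 of 14 tested fibroblast markers (sums 318.5 to 388.0 against 1129 to 1957), 10 of 12 pericyte and smooth muscle markers (1400 to 1854 against 1977 to 2602) and 14 of 14 tested leukocyte markers (110.3 to 154.9 against 554.4 to 1275). The same held for 8 of 9 tested mesothelial markers (11.93 to 20.15 against 89.68 to 203.4), 8 of 9 tested atrial markers (2616 to 3152 against 3267 to 5476) and 1 of 2 tested erythroid and platelet markers (3.003 to 6.721 against 8.583 to 38.16). Clu, which was not called, made up most of the atrial sums (mean 2558 against 2285). Abcc9, also not called, was the largest part of the pericyte and smooth muscle sums (1228 against 1148.5). The median log2 difference was -3.02 for the tested atrial markers and -2.42 for the pericyte and smooth muscle markers. The markers listed at 0 in FITChigh were Tcf21 of the fibroblast list, Cd52, Cd3e and Cd79a of the leukocyte list and 8 of 11 erythroid and platelet markers, of which 7 were also at 0 in FITCdim. The part of these other cells in the carrier results was not tested. In bulk RNA, fewer cells of a type and less RNA per cell cannot be told apart.

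Of the 40 tested carriers, 2 were higher in FITChigh (Slc25a12 and Slc25a23), 3 were lower (Slc25a24, Slc25a30 and Slc25a45) and 35 did not pass the test. Each gene was tested with limma-trend after adding 1 to its value and taking log2, Benjamini-Hochberg adjustment ran over all 12907 tested genes, and the threshold was 0.05. Over all tested genes 16.1% were called, 2.51% as higher and 13.5% as lower, against 5.0% and 7.5% of the carriers. These counts take the libraries as unpaired. With libraries paired by title tag, 7 carriers were higher, adding Slc25a3, Slc25a4, Slc25a13, Slc25a34 and Slc25a42. In that setting 4 carriers were lower, adding Slc25a25. Over all tested genes, 1064 were then higher and 2059 lower, against 324 and 1748 unpaired. The median log2 difference, FITChigh minus FITCdim, was 0.23 over the carriers, -0.01 over all tested genes and 0.46 over the cardiomyocyte markers. The fitted difference was above 0 for 30 of the 40 carriers (75.0%) and for 49.4% of all tested genes. The 30 include Slc25a31, whose sign was fixed because it passed the filter through FITChigh alone. The number above 0 moves with any rescaling of whole libraries, which shifts all genes together. It was 22 with every library set to a common total, 32 after quantile normalisation and 6 with every library set to the same sum of cardiomyocyte markers, where the median of all tested genes was -0.20, 0.13 and -0.51. The carriers' median lay above that median by 0.24 as deposited and by 0.23, 0.07 and 0.22 in those settings. The common total and the marker sum multiply each library by a factor, so apart from the added 1 they cannot change this gap. Quantile normalisation can change it, and gave the 0.07.

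**Figure D1:**
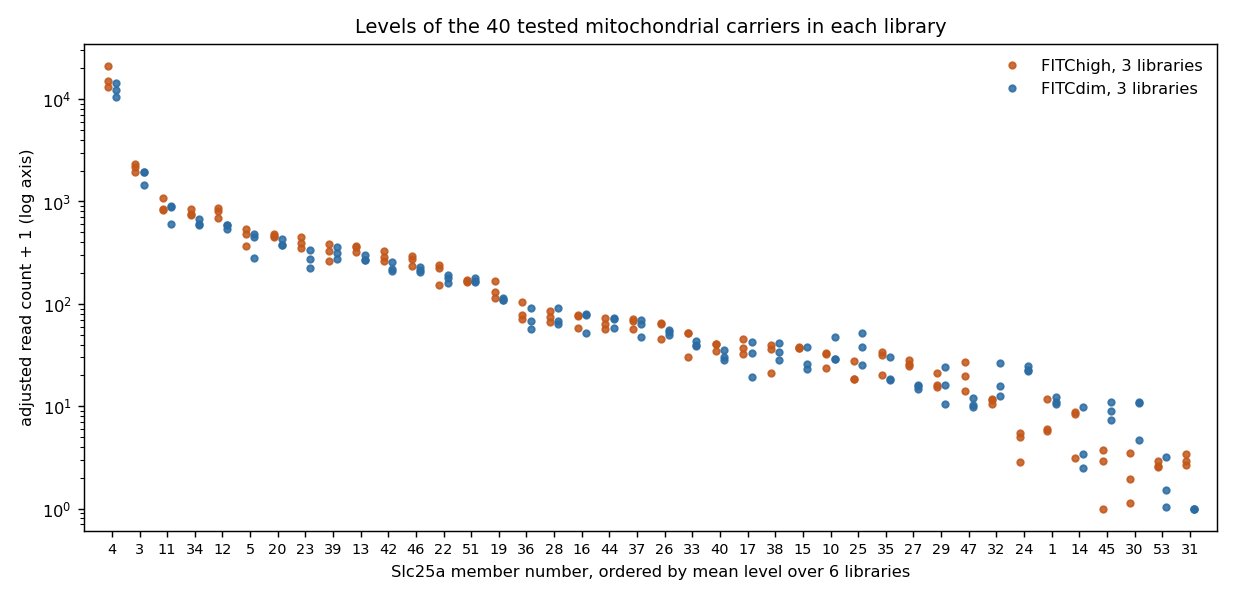
Adjusted read count + 1 (log axis) of the 40 tested carriers in each of 3 FITChigh and 3 FITCdim libraries, ordered by mean level; each point is 1 library. Slc25a4 stands above every other carrier in all 6 libraries. Near the low end, Slc25a24, Slc25a45, Slc25a30 and Slc25a32 have every FITCdim point above every FITChigh point. Of these, Slc25a32 was not called (limma adjusted p = 0.27).

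**Figure D2:**
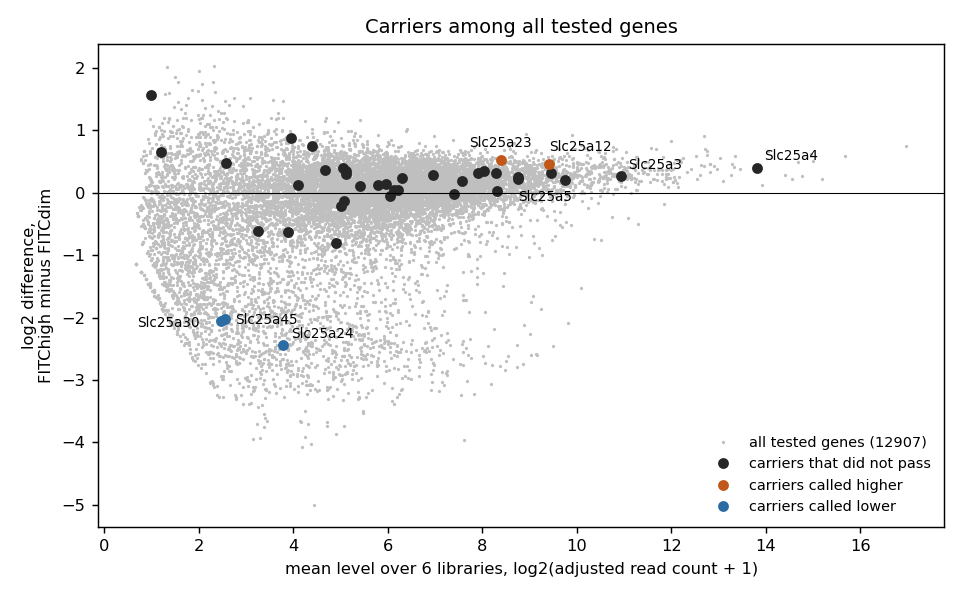
Log2 difference, FITChigh minus FITCdim, against mean level for all 12907 tested genes (grey) and the 40 carriers (black where not called, orange higher, blue lower). The called higher carriers lie at 0.46 and 0.53 among well-expressed genes, and the 3 called lower carriers lie between -2.02 and -2.44 at low levels.

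Higher calls lay among the well-expressed carriers and lower calls among the weakly expressed ones. The 15 carriers with a mean adjusted read count of at least 100 held both higher calls and no lower call, with a median difference of 0.29. Over all 3567 genes at that level the median was 0.15 and 7.12% were called higher. Below that level, 25 tested carriers held the 3 lower calls, no higher call and a median of 0.12. Of the 324 higher calls over all tested genes, 254 also had a mean level of at least 100. The placing of the higher calls is therefore not particular to the carriers, and the lower calls of all genes were not split by level. The FITChigh libraries all lay above the FITCdim libraries for 7 of the 15 (46.7%), against 23.4% of genes at that level. Over all 40 carriers, 10 (25%) had FITChigh wholly above and 4 (10%) wholly below, against 11.4% and 20.2% of all tested genes. The 10 include Slc25a31, whose separation was fixed because it passed the filter through FITChigh alone. In either direction the gates separated for 14 of 40 carriers, against 31.6% of all tested genes, and the remaining 26 overlapped.

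**Figure D3:**
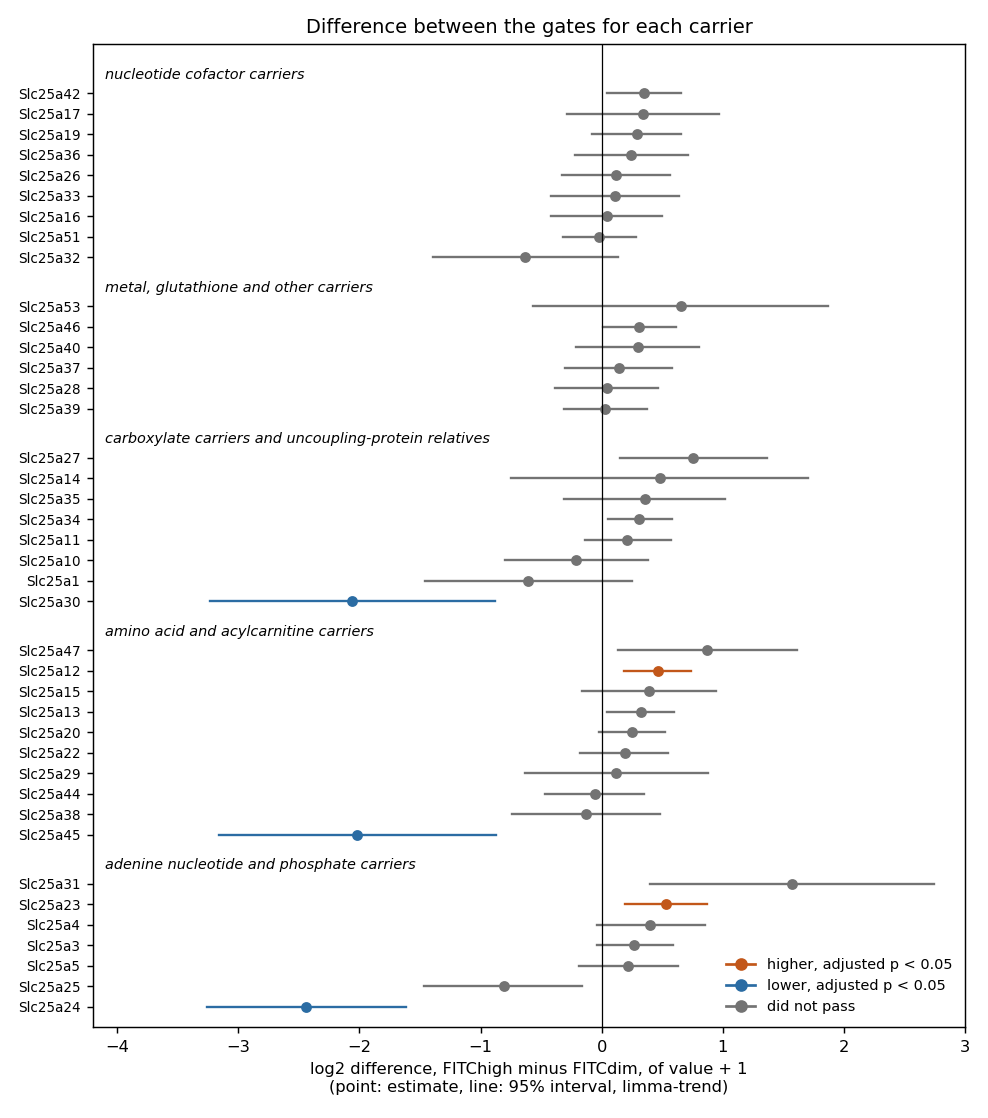
Log2 difference, FITChigh minus FITCdim, for each tested carrier by substrate group (point: estimate, line: 95% interval from limma-trend). Many carriers sit slightly above 0 with intervals that reach 0, while Slc25a24, Slc25a30 and Slc25a45 lie at or below -2.02.

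The ADP/ATP carriers exchange matrix ATP for cytosolic ADP. Slc25a4, the heart and muscle isoform, had adjusted read counts of 15182, 21009 and 13261 in the FITChigh libraries and 12241, 14391 and 10405 in FITCdim. The 2nd FITChigh library was the highest of the 6, and the gates overlapped. The log2 difference was 0.40 (SE 0.21, 95% interval -0.04 to 0.85) with an adjusted p of 0.23 by limma, so Slc25a4 was not called. It was called higher in 1 of 16 alternative settings, with libraries paired by title tag (limma adjusted p = 0.0074). It supplied 65.6% ± 4.29 (SD, n = 3) of the summed carrier counts in FITChigh and 63.3% ± 2.57 (n = 3) in FITCdim. Per kilobase of exon, its share was 75.1% ± 3.04 and 73.0% ± 1.82.

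Slc25a5, the ADP/ATP carrier of most other tissues, had 485.0, 537.6 and 364.5 adjusted read counts in FITChigh and 477.8, 449.8 and 278.0 in FITCdim. In each gate the third library was the lowest, and the gates overlapped, with a log2 difference of 0.22 (SE 0.19, 95% interval -0.19 to 0.63, limma adjusted p = 0.50). Per kilobase, Slc25a4 exceeded Slc25a5 by 24.9-fold ± 2.75 (SD, n = 3) in FITChigh and 22.2-fold ± 4.16 (n = 3) in FITCdim. The log2 ratio of these paralogs differed by 0.18 between the gates, with overlapping libraries and an exact two-sided permutation p of 0.5. The adjusted p over 8 paralog pairs was 0.667.

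Slc25a31, an ADP/ATP carrier known from germ cells, had 1.903, 1.663 and 2.411 adjusted read counts in FITChigh and 0 in each FITCdim library. It passed the filter through FITChigh alone and is named because of its values. These levels rest on 6 recovered reads against 0, a fold of 2.26 when FITCdim is set to a floor of 3 reads over the group. That fold takes the 6 reads as free of error. For counting error alone, the 95% interval of the FITCdim to FITChigh ratio ran from 0 to 0.7525. The limma adjusted p was 0.066, and gives no support since the filter was passed through the gate where Slc25a31 is high. Slc25a3, which imports the phosphate used in ATP synthesis, had 2151, 2329 and 1959.5 in FITChigh and 1961, 1954.5 and 1456 in FITCdim. The lowest FITChigh library lay under the highest FITCdim library, and the log2 difference was 0.27 (SE 0.15, 95% interval -0.04 to 0.59, limma adjusted p = 0.25).

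The calcium-regulated carriers are described together for their shared domain and not as a tested group. Slc25a23, an ATP-Mg/phosphate carrier that adjusts the adenine nucleotide content of the matrix, had 347.4, 393.7 and 452.8 adjusted read counts in FITChigh and 224.7, 272.3 and 333.5 in FITCdim. Every FITChigh library was above every FITCdim library, the closest by 347.4 against 333.5. Slc25a23 was higher by 0.53 on the log2 scale (SE 0.16, 95% interval 0.19 to 0.87), a fold of 1.45, with a limma adjusted p of 0.032.

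Slc25a24, a paralog with the same kind of substrate, had 1.877, 4.424 and 4.028 adjusted read counts in FITChigh and 23.84, 21.15 and 21.71 in FITCdim. The highest FITChigh library, at 4.424, lay far under the lowest FITCdim library, at 21.15. The difference was -2.44 on the log2(value + 1) scale (SE 0.39, 95% interval -3.26 to -1.62, limma adjusted p = 0.00029). It rests on 10 recovered reads in FITChigh and 75 in FITCdim, a depth-adjusted ratio of 6.65 in favour of FITCdim, with a 95% interval of 3.42 to 14.4 for counting error alone. The endothelial (846.3 to 1189 against 6051 to 6890), fibroblast and leukocyte marker sums given above moved the same way as Slc25a24, Slc25a30 and Slc25a45, and their part in those calls was not tested. Slc25a25, the third carrier of that kind tested, had 26.83, 17.48 and 17.25 in FITChigh and 51.28, 37.22 and 24.46 in FITCdim. One FITCdim library lay within the FITChigh range, and the log2 difference of -0.81 (SE 0.31, 95% interval -1.47 to -0.16) had a limma adjusted p of 0.09. Slc25a25 passed in 4 of 16 alternative settings, among them without FITCdim library 3 (-1.08, adjusted p = 0.024), at a common total (-1.01, 0.033) and with libraries set to the cardiomyocyte markers (-1.32, 0.0038). Slc25a41 and Slc25a54, further members of that group, were listed at 0.

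Slc25a12 and Slc25a13 are the aspartate/glutamate carriers of the malate-aspartate shuttle, which moves reducing equivalents from cytosolic NADH into the matrix. Slc25a12 (chr2:71271063-71367749, reverse strand) had 866.0, 691.7 and 805.7 adjusted read counts in FITChigh and 536.3, 590.1 and 587.3 in FITCdim. The gates did not overlap, and Slc25a12 was higher by 0.46 on the log2 scale (SE 0.13, 95% interval 0.18 to 0.74), a fold of 1.37, with a limma adjusted p of 0.024. Slc25a13 had 354.2, 369.8 and 321.3 in FITChigh and 302.1, 267.5 and 268.1 in FITCdim. These did not overlap either, and the log2 difference of 0.32 (SE 0.13, 95% interval 0.04 to 0.60) had a limma adjusted p of 0.12. The log2 ratio of Slc25a12 to Slc25a13 was 1.17 ± 0.23 (SD, n = 3) in FITChigh and 1.03 ± 0.18 (n = 3) in FITCdim, with an exact permutation p of 0.5 and an adjusted p of 0.667. The higher call of Slc25a12 and the lack of one for Slc25a13 are thus not shown to be a difference between these paralogs.

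**Figure D4:**
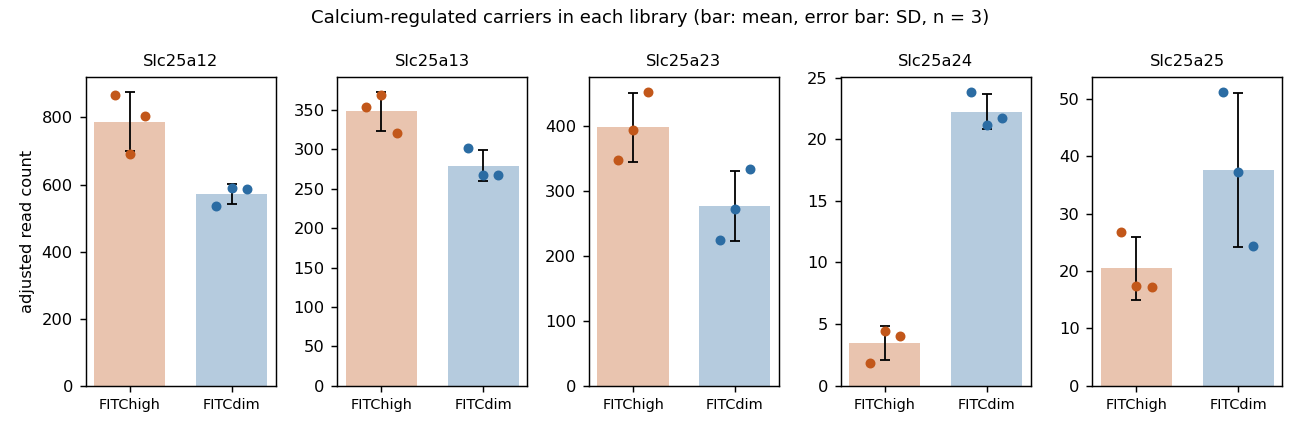
Adjusted read counts of the 5 tested calcium-regulated carriers in each library (points), with the mean (bar) and SD (error bar, n = 3); each panel has its own axis from 0. Slc25a12, Slc25a13 and Slc25a23 have all FITChigh points above all FITCdim points, Slc25a24 has them far below, and Slc25a25 overlaps.

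Both higher calls were lost under several settings. Leaving out FITChigh library 1 gave Slc25a12 an adjusted p of 0.14, leaving out FITChigh library 3 gave 0.066 and leaving out FITCdim library 1 gave 0.11. For Slc25a23 the values were 0.06 without FITChigh library 2, 0.12 without FITChigh library 3, 0.17 without FITCdim library 1 and 0.056 without FITCdim library 2. After quantile normalisation the adjusted p was 0.14 for Slc25a12 and 0.067 for Slc25a23. Set to a common total, Slc25a12 differed by 0.25 (limma adjusted p = 0.23) and Slc25a23 by 0.33 (0.20). Set to the summed cardiomyocyte markers, they differed by -0.07 and 0.00 (adjusted p = 0.72 and 0.99). Slc25a24 was called lower in each of 16 alternative settings, with log2 differences of -1.96 and -2.89 after quantile normalisation and after setting to the cardiomyocyte markers.

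**Figure D5:**
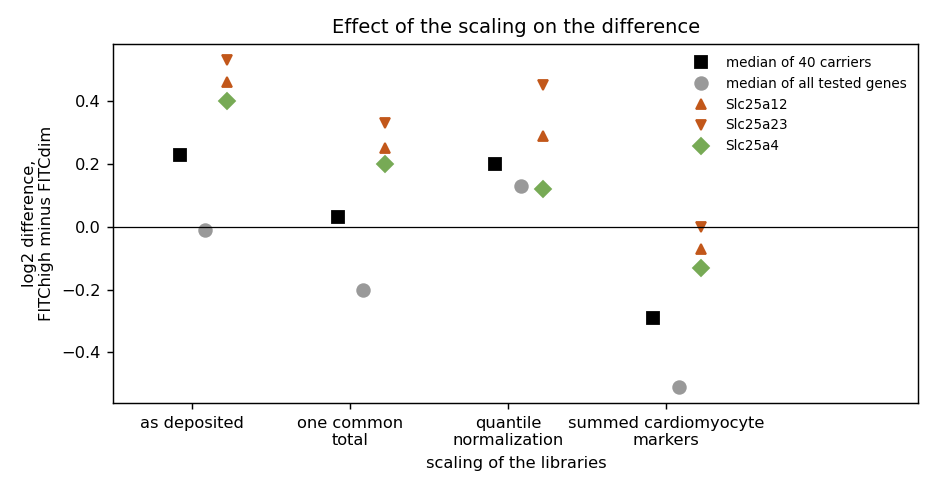
Log2 difference, FITChigh minus FITCdim, of the carriers' median, the median of all tested genes, Slc25a12, Slc25a23 and Slc25a4 under 4 scalings of the libraries. The carriers' median is 0.23 as deposited, 0.03 at a common total, 0.20 after quantile normalisation and -0.29 when the summed cardiomyocyte markers are made equal. It lies above the median of all tested genes by 0.24, 0.23, 0.07 and 0.22. Apart from the added 1, only quantile normalisation can change that gap.

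Among carboxylate carriers and uncoupling-protein relatives, 1 of 8 tested was lower, none was higher, and the median difference was 0.26. Slc25a11, the 2-oxoglutarate/malate carrier that works with Slc25a12 and Slc25a13 in the shuttle, had 848.7, 1077 and 817.9 adjusted read counts in FITChigh and 889.7, 893.9 and 600.7 in FITCdim. The gates overlapped, and the log2 difference was 0.21 (SE 0.17, limma adjusted p = 0.44). Slc25a34 had 840.2, 750.5 and 736.1 against 591.5, 604.0 and 674.9. Its gates did not overlap, yet the log2 difference of 0.31 (SE 0.13) did not pass, with a limma adjusted p of 0.11.

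Slc25a30 (chr14:75760117-75787037, reverse strand), a relative of the uncoupling proteins, had 0.943, 0.1278 and 2.497 adjusted read counts in FITChigh and 10.07, 9.748 and 3.65 in FITCdim. The FITCdim libraries were all above the FITChigh libraries, the third by little. The log2(value + 1) difference was -2.06 (SE 0.55, limma adjusted p = 0.017), on 4 recovered reads against 27. That is a depth-adjusted ratio of 5.98 in favour of FITCdim, with a 95% counting interval of 2.08 to 23.5. It had passed the filter with 3 FITCdim libraries and 1 FITChigh library at 1 or more. The call was lost without FITCdim library 1 (adjusted p = 0.11), FITCdim library 2 (0.092) or FITChigh library 2 (0.063) and after quantile normalisation (0.12).

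Slc25a27, another uncoupling-protein relative, had 24.81, 27.35 and 23.77 in FITChigh and 15.23, 13.71 and 14.83 in FITCdim. It is named because its gates stood apart with little spread, but its log2 difference of 0.75 (SE 0.28) had a limma adjusted p of 0.087. It passed after quantile normalisation (1.13, adjusted p = 0.016).

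Of the amino acid and acylcarnitine carriers, 1 of 10 tested was higher (Slc25a12), 1 was lower (Slc25a45) and the median difference was 0.22. Slc25a45 (chr19:5877808-5885878, forward strand) had 1.918, 2.773 and 0 adjusted read counts in FITChigh and 9.99, 6.384 and 8.013 in FITCdim. The gates did not overlap, and the log2(value + 1) difference was -2.02 (SE 0.54, limma adjusted p = 0.016). It rests on 4 recovered reads against 28, a depth-adjusted ratio of 6.20 in favour of FITCdim with a 95% counting interval of 2.17 to 24.3. Slc25a45 passed the filter with 3 FITCdim and 2 FITChigh libraries at 1 or more. Its call was lost without FITCdim library 1 (adjusted p = 0.091), FITCdim library 3 (0.053) or FITChigh library 3 (0.056) and after quantile normalisation (0.11).

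Slc25a20, which brings acylcarnitines to the matrix for fatty acid oxidation, had 453.5, 480.7 and 461.7 in FITChigh and 427.2, 376.4 and 370.8 in FITCdim. All FITChigh libraries were higher, and the log2 difference of 0.25 (SE 0.13, 95% interval -0.02 to 0.52) had a limma adjusted p of 0.21. The glutamate carrier Slc25a22 had 220.6, 151.7 and 237.9 against 191.1, 160.0 and 176.8, which overlapped, with a log2 difference of 0.19. Its paralog Slc25a18 had 1 recovered read in each FITChigh library and 0 in FITCdim and was not tested. Slc25a47 had 25.89, 18.58 and 13.09 against 11.12, 8.779 and 9.173. It is named because its gates did not overlap, with a log2 difference of 0.87 (SE 0.35) and a limma adjusted p of 0.11. It also passed after quantile normalisation (1.36, adjusted p = 0.015).

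None of the 9 nucleotide cofactor carriers passed the test, and their median difference was 0.12. Slc25a42, a carrier of coenzyme A, had 323.7, 263.9 and 285.7 adjusted read counts in FITChigh and 210.4, 220.4 and 255.1 in FITCdim. These did not overlap, and the log2 difference of 0.35 (SE 0.14) had a limma adjusted p of 0.12. Slc25a51, the NAD carrier of mammalian mitochondria, had 164.2, 164.6 and 171.2 against 162.9, 167.1 and 176.7. Its log2 difference was -0.02 (SE 0.14, limma adjusted p = 0.95), with a 95% interval of -0.32 to 0.28 that bounds the difference without showing that the gates were equal. The pyrimidine nucleotide carriers Slc25a33 and Slc25a36 differed by 0.11 and 0.24 and overlapped between gates.

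None of the 6 tested metal, glutathione and other carriers passed the test, and their median difference was 0.22. The mitoferrins, which import iron for haem and iron-sulphur cluster synthesis, overlapped between gates. Slc25a37 had 66.85, 56.29 and 70.29 adjusted read counts in FITChigh and 62.12, 46.44 and 68.15 in FITCdim, and Slc25a28 had 73.5, 84.98 and 64.89 against 62.22, 90.7 and 66.33. Their log2 differences were 0.14 and 0.04. The glutathione importer Slc25a39 had 327.5, 379.2 and 261.9 against 311.1, 356.9 and 275.2, a log2 difference of 0.03, and its paralog Slc25a40 differed by 0.30. Slc25a46, an outer-membrane member tied to mitochondrial shape, had 235.7, 294.0 and 271.5 against 215.3, 202.0 and 226.8. Those gates did not overlap, and the log2 difference of 0.31 (SE 0.14) had a limma adjusted p of 0.16. Slc25a53 passed the filter with 3 FITChigh libraries and 1 FITCdim library at 1 or more, and Slc25a43 had 4 reads, all in FITCdim library 3.

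Within-library ratios of paralogs do not change when a library is multiplied by a common factor, apart from the effect of the added 1. The libraries of the gates separated for 4 of the 8 pairs compared. The exact two-sided permutation test has 20 assignments of 3 against 3 libraries and cannot give a p under 0.1, so no pair could pass 0.05. The log2 ratio of Slc25a23 to Slc25a24 was 6.92, 6.19 and 6.50 in FITChigh and 3.18, 3.63 and 3.88 in FITCdim, a difference of 2.97 (exact permutation p = 0.1, adjusted p = 0.2). That of Slc25a25 to Slc25a24 differed by 1.63 with the same p values, and both rest on the few Slc25a24 reads in FITChigh. The log2 ratio of Slc25a39 to Slc25a40 was 3.26, 3.22 and 2.71 in FITChigh and 3.38, 3.34 and 3.28 in FITCdim, separated by the narrow gap of 3.26 to 3.28 (exact permutation p = 0.1, adjusted p = 0.2). The fourth, Slc25a22 to Slc25a18, differed by -0.84 and is set by the added 1, since Slc25a18 had almost no reads. For Slc25a28 to Slc25a37 and Slc25a33 to Slc25a36 the differences were -0.10 and -0.14, each with an exact permutation p of 0.8.

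The summed adjusted read counts of all carriers were 24940.5 ± 4394 (SD, n = 3) in FITChigh and 19445 ± 2396 (n = 3) in FITCdim, with ranges of 21311 to 29826 and 16963 to 21744 that overlapped. Without Slc25a4 the FITChigh sums ran from 8050.2 to 8817 and the FITCdim sums from 6558 to 7387, with no overlap. As a share of all adjusted read counts in the library, the sum without Slc25a4 was 0.352% ± 0.00806 in FITChigh and 0.341% ± 0.0275 in FITCdim, and overlapped.

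Other genes of the family and of the same pathways were read from the same fit, with lists chosen with earlier results of these data known. Of 4 tested family genes under other symbols, Ucp2 was lower and the other 3 did not pass. Ucp2, an uncoupling protein found in many cell types, leukocytes among them, had 129.0, 106.6 and 101.5 adjusted read counts in FITChigh and 269.2, 297.8 and 248.9 in FITCdim. No library of one gate came near the other, and the log2 difference was -1.27 (SE 0.15, limma adjusted p = 1.9e-05). Ucp3, the muscle uncoupling protein, had 390.5, 350.0 and 418.3 against 288.0, 245.8 and 338.2, a log2 difference of 0.42 with a limma adjusted p of 0.067.

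Of 20 tested mitochondrial membrane transporters outside the family, 4 were higher and 2 were lower, with a median difference of 0.23. Over all tested genes, 2.51% were higher and 13.5% lower. Among genes with a mean level of at least 100, 7.12% were higher. The higher genes were Mpc1, a subunit of the pyruvate carrier (0.49, limma adjusted p = 0.023), Letm1, an inner-membrane ion exchanger (0.46, 0.020), Abcb8, an ATP-binding cassette transporter (0.53, 0.025), and Vdac2, an outer-membrane channel (0.42, 0.041). The lower genes were Sfxn1, a serine transporter (-1.44, 0.016), and its relative Sfxn3 (-3.15, 0.0003). Sfxn3 had 3.833, 0.2801 and 4.072 adjusted read counts in FITChigh against 28.63, 33.02 and 20.82 in FITCdim. Of 14 tested enzymes that work with the carriers, 2 were higher, none was lower and the median was 0.36. Ckm and Ckmt2 are also in the cardiomyocyte marker list, so the higher call of Ckmt2 counts in both lists. Ckmt2, the mitochondrial creatine kinase that uses ATP exported by the ADP/ATP carrier, had 8585, 9654 and 6861 in FITChigh and 4996, 5770.3 and 4556.5 in FITCdim. That is a log2 difference of 0.70 (SE 0.17, limma adjusted p = 0.0089) without overlap. Cpt2, which frees the acyl groups that Slc25a20 brings in, differed by 0.42 (limma adjusted p = 0.041).

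RefSeq promoter windows (build GRCm38.p6, 250 bases before to 50 after the start) were found for 31 of the 40 tested carriers. The estrogen-related receptor motif AAGGTCA, on either strand, lay in 1 of them (3.2%), that of Slc25a34, against 3.8% of 9587 tested genes. The NRF1 motif (GCGCA, any base, then GCGC) lay in 2 (6.5%, Slc25a3 and Slc25a31) against 11.3%, and the ETS motif CCGGAAG in 6 (19.4%) against 19.4%. These are matches of letters in a short window. All 47 carriers matched the annotation by symbol. Slc25a23 lies 2056 bases from Slc25a41, and Slc25a24 lies 6461 bases from Slc25a54. Exons of a gene on the opposite strand covered 3.2% of Slc25a23, 31.3% of Slc25a35, 14.9% of Slc25a33 and 8.9% of Slc25a11, and none of Slc25a4, Slc25a5, Slc25a12, Slc25a24, Slc25a30 or Slc25a45.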

How the data were processed

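RNA of 6 sorted samples was measured. A stranded mRNA kit and paired reads of 75 bases were used, per the labels' protocols. Per the submitters' processing notes, STAR 2.5, edgeR and build mm10 were used. Neither the counting program nor its strand setting is given in the sources used here. The values the authors deposited are a signal, namely reads per gene set to one library size, with column totals of 2030583 to 2443707. Of 23410 gene lines, 6 were garbled and left out. Columns were matched to samples by title, and libraries were numbered in accession order.

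The 12907 genes that reached 1 in 3 or more of the 6 libraries were fitted with limma 3.58.1 (limma-trend, R 4.3.3) on log2(value + 1), FITChigh minus FITCdim, two-sided, with Benjamini-Hochberg adjustment over all of them and a threshold of 0.05. Reads behind each value were recovered by inverting the negative binomial adjustment (dispersion 0.0203) and rounding to whole reads. Put through the adjustment again, the rounded reads gave back 100% of the values to within 0.1 of a read. They served for depth, counting intervals and an added test. Intervals and floors cover counting error only. On simulated data for this comparison (12689 genes tested, 200 changed) 64% of 2-fold and 97% of 4-fold changes were recovered, with 2.4% false calls. Every simulated gene had the same dispersion of 0.0203, and no gene of the lowest levels was changed. The rates therefore need not hold for the real libraries or for carriers with few reads.

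The members and lists were chosen with earlier results of these data known. Named were all called members, the 6 of highest mean level, the members of 8 paralog pairs and Slc25a3, Slc25a11, Slc25a20, Slc25a42, Slc25a46 and Slc25a51. Slc25a27, Slc25a31, Slc25a32, Slc25a47 and carriers described by filter or position were named after their values were seen. Positions and transcripts come from GENCODE M21.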

Additional observations from a re-analysis of the deposited data

How the results depend on the processing

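Of 16 alternatives, Slc25a24 was called lower in 16, Slc25a12 higher in 10, Slc25a23 higher in 9, and Slc25a30 and Slc25a45 lower in 11 of 15 each, since a filter of at least 10 in 3 libraries left the last 2 untested and 1 lower carrier. At a common total, 41 genes were higher and 0 carriers, with a carrier median of 0.03, and 4 carriers were lower. Quantile normalisation left 1 lower carrier and called 3 higher (Slc25a27, Slc25a31 and Slc25a47), none of them a higher call as deposited. The call of Slc25a31 gives no support, since Slc25a31 passed the filter through FITChigh alone. The share of higher among all calls was 15.6% as deposited, 1.84% at a common total and 27.8% after quantile normalisation. Scaling to the cardiomyocyte markers, added after seeing the data, shifted the median of all tested genes to -0.51. It gave 8 higher and 4729 lower genes, 0 higher and 8 lower carriers, and a carrier median of -0.29. Slc25a12 was then at -0.07 and Slc25a39 at -0.50. Leaving out 1 library gave 67 to 341 higher and 1152 to 1672 lower genes, 0 to 2 higher and 1 to 3 lower carriers and medians of 0.18 to 0.26. The log2 ratio of Slc25a28 to Slc25a37 turned to 0.06 without FITChigh library 3 and 0.22 without FITCdim library 2, and that of Slc25a33 to Slc25a36 to 0.29 and 0.07 without the same libraries, over a range of -0.38 to 0.29. The causes were not tested.

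In their deviations, the 2 pairs of libraries that share a title tag correlated at 0.125 and 0.175, and the pair whose titles carry no tag at 0.071. Libraries with different tags correlated at -0.122 to -0.008, so each library correlated best with its own partner. As not every pair was over 0.1 and the labels do not explain the tags, the main test did not take the libraries as paired. The counts of calls depend on that choice. With a replicate block on the tags, 1064 genes and 7 carriers (Slc25a3, Slc25a4, Slc25a12, Slc25a13, Slc25a23, Slc25a34 and Slc25a42) were higher. The block also gave 4 lower carriers (Slc25a24, Slc25a25, Slc25a30 and Slc25a45), Slc25a25 with a limma adjusted p of 0.03. Depth limits the carriers with few reads, among them Slc25a24, Slc25a30, Slc25a31 and Slc25a45.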
